A study of Mus musculus with 12 samples.

Results

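Transcripts of 5 genes that belong to multicopy families or are best known from other tissues were followed in mature mouse oocytes with and without Dicer. Their probes were picked by gene symbol through the RefSeq transcript accession of each probe: C130026I21Rik, Vmn1r148, Krtap9-3, Hsd3b4 and Tcp10b, 1 probe each, 5 of 33012 gene probes and of 317 probes that could be paired with a symbol. The set was drawn up with earlier results of the knockout against wild-type contrast in view, including detection in oocytes, so the differences are given as a description without a test. The arrays were 6 of Dicer Knock-Out oocytes and 6 of Dicer Wild-type oocytes, each hybridized with amplified, digoxigenin-labelled cRNA from total RNA and read by chemiluminescence in 1 colour. The labels describe the material as a single cell, and the sources used here name neither strain nor age nor the way in which Dicer was removed. Nothing says that the arrays came from separate animals, so the spread between them, and any p-value resting on it, may be technical; precision is limited by there being 6 arrays a group.

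Dicer is the RNase III enzyme that cuts precursor hairpins and long double-stranded RNA into microRNAs and small interfering RNAs. In growing mouse oocytes, small interfering RNAs made by Dicer from pseudogene, inverted-repeat and retrotransposon transcripts can lower matching messenger RNAs. A fully grown oocyte makes little new RNA, so its transcripts are largely a maternal store. Mouse multicopy families arise by local gene duplication, and the copies can be so alike that 1 array probe may bind transcripts of several of them. The sequences of the array probes were not used here, so which copies each probe reads was not tested.

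The oocyte label was looked up on markers. The marker lists were drawn up with earlier results of these data known, so detection of the oocyte markers is no independent check. Of 19 oocyte markers 5 had a named probe, and Obox1, Obox2, Obox3 and Cphx1, homeobox genes of the oocyte, were above background on all 12 arrays, while Mos, the kinase that holds eggs in metaphase, was above background on 6 knockout and 5 wild-type arrays. Above background means a signal-over-noise score of at least 3. Of 13 granulosa and cumulus markers only 1 had a named probe, and of 6 blood markers only 1. Sfrp4 of cumulus cells was above background on 1 knockout and 0 wild-type arrays, and Hba-a1, a haemoglobin chain of red cells, on 1 array of each group. None of the 5 epithelial markers and none of the 6 theca and luteal markers had a named probe, so other cells were barely checked. The knockout arrays were brighter, with 7361 to 9598 probes above background against 5707 to 7102 on the wild-type arrays. The median scanner signal over the 6088 probes above background on at least 6 arrays ran from 2736 to 6732 intensity units on knockout arrays and from 1069 to 2580 on wild-type arrays. This brightness moves with genotype, and its part in the differences below was not tested. The serial numbers in the sample titles also run with genotype, all knockout arrays coming before all wild-type arrays. An effect of array order therefore cannot be told apart from genotype.

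The 5 genes formed 2 patterns. C130026I21Rik, Vmn1r148 and Krtap9-3 were above background on 6 of 6 knockout arrays and on 2, 1 and 1 of 6 wild-type arrays in that order, and their scanner signals did not overlap between the groups. Hsd3b4 and Tcp10b were above background on all 12 arrays, and their scanner signals overlapped between the groups. After quantile normalization, which gives all arrays the same distribution so that a value is read relative to the other probes of its array, the first 3 genes were higher and the last 2 lower in knockout oocytes without overlap. Among all 6088 tested probes, 28.3% had groups without overlap after this normalization, 15.2% with the knockout higher and 13.1% with the knockout lower. The share of probes without overlap in the scanner signal, or with such a split in detection, was not counted. With the knockout arrays brighter, nothing is read from either trait in the first 3 genes. The array medians of scanner signal over the tested probes, given above, did not overlap between the groups either. At an adjusted p under 0.05 in limma 28.1% were higher and 22.4% lower in knockout oocytes. Since the genes were chosen on this contrast, nothing is read from their own count.

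**Figure D1:**
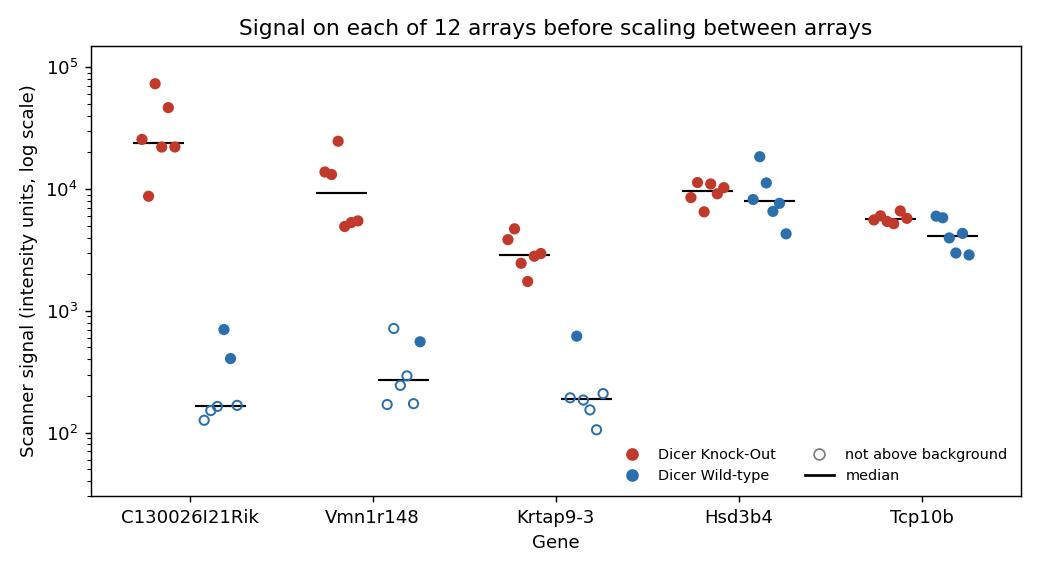
Scanner signal of each gene on each array (intensity units, log scale), with 6 Dicer Knock-Out arrays left of 6 Dicer Wild-type arrays for each gene; filled points are above background, open points are not, and bars are medians. The lowest knockout signal of C130026I21Rik, 8735, lies above its highest wild-type signal, 702, while the signals of Hsd3b4 and Tcp10b overlap.

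C130026I21Rik is an uncharacterized gene of mouse chromosome 1 named after a RIKEN cDNA clone. Its promoter window shows the kind of duplication at issue. In the RefSeq table of windows of 300 bases (build GRCm38.p6, 250 before to 50 after the gene start), the window of Sp140, which encodes a nuclear body protein of leukocytes, matched it at 99.6% identity over 255 aligned bases, and that of A530032D15Rik at 95.9% over 291. The stretches below run from 150 to 11 bases before the start of C130026I21Rik, with the matching bases of the other windows. Capitals mark the GC box GGGCGG, searched on both strands, in C130026I21Rik and the 1 base that differs in Sp140, while A530032D15Rik has 0 differing bases here.
C130026I21Rik, chr1:85270577-85270716, minus strand: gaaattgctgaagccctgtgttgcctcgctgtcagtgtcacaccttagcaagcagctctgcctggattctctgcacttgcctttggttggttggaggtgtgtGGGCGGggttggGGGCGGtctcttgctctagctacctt
Sp140, chr1:85600515-85600654, plus strand: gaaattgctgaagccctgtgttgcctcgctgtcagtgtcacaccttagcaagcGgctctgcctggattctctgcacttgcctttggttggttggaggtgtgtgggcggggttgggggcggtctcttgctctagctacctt
A530032D15Rik, chr1:85109873-85110012, minus strand: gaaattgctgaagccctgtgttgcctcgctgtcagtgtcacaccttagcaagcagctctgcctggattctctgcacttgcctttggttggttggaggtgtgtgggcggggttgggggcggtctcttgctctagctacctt
The GC box GGGCGG began 48 and 36 bases before the start of C130026I21Rik, and 35.7% of the 32851 windows in the table hold it on either strand. Of the 5 genes, C130026I21Rik was the only 1 whose window held it. These letters are a description of the sequence and not a binding site.

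The scanner signal of C130026I21Rik was 8735 at the lowest, 23893 at the median and 73360 at the highest of the knockout arrays. On the wild-type arrays it was 126 at the lowest, 166 at the median and 702 at the highest. Every knockout array was thus above every wild-type array, as it also was in the median signal over the tested probes. On 4 of the 6 wild-type arrays the gene lay on the noise floor, where the scanner sets the signal equal to its error. The 2 wild-type arrays above background were replicates 4 and 5, at 702 and 406 intensity units with signal-over-noise scores of 4.94 and 4.47. The knockout scores ran from 37.9 to 70.4.

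After quantile normalization C130026I21Rik averaged a log2 signal of 13.94 ± 0.69 in knockout oocytes and 8.08 ± 1.32 in wild-type oocytes (SD, n = 6 each). The log2 difference was 5.86 ± 0.56 (SE from limma), whose size rests on wild-type values at the noise floor on 4 of 6 arrays, and the probe passed the filter through its knockout arrays. Within the knockout group replicate 3 was highest at 15.04 and replicate 2 lowest at 12.93.

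Vmn1r148, called V1rd14 in older annotation, encodes a G protein-coupled receptor of the V1R family. V1R receptors are made by sensory neurons of the vomeronasal organ, where they detect pheromones, and mice carry large clusters of V1R genes. The window of Vmn1r148 had no near-identical partner among the promoter windows, taking as near-identical at least 90% identity over at least 250 aligned bases. Its best matches, the V1R genes Vmn1r172 and Vmn1r65, reached 73.3% over 172 and 73.1% over 186 aligned bases. The stretch from 150 to 11 bases before its start is shown as that of a gene without a close copy at its promoter. It holds neither TATAAA nor GGGCGG on either strand, so it has no capitals.
Vmn1r148, chr7:22412081-22412220, plus strand: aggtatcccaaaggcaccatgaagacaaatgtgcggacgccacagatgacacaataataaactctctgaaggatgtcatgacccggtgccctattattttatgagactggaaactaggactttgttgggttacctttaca

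The knockout arrays gave Vmn1r148 a scanner signal of 4930 at the lowest, 9329 at the median and 24738 at the highest. On the wild-type arrays the signal was 170 at the lowest, 268 at the median and 716 at the highest. Groups did not overlap, and the knockout arrays themselves fell apart into 2 levels. Replicates 1, 2 and 3 were at 13823, 13177 and 24738 intensity units, and replicates 4, 5 and 6 at 4930, 5312 and 5482.

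The same division stood after normalization, with knockout log2 signals of 13.25, 13.50 and 13.35 on replicates 1, 2 and 3 and none above 11.85 on replicates 4, 5 and 6. The labels give no batch that would divide the knockout arrays in this way. The SD of Vmn1r148 over the knockout arrays was 1.08 on the log2 scale, larger than that of 96.7% of the 4565 tested probes above background on all 6 knockout arrays, whose median SD was 0.48. On the wild-type arrays the only value above background was replicate 6, at 557 intensity units with a score of 5.58. Replicate 2 was brighter at 716 but noisier, with a score of 2.16.

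Vmn1r148 averaged a log2 signal of 12.42 ± 1.08 in knockout oocytes and 8.51 ± 1.06 in wild-type oocytes (SD, n = 6 each). The log2 difference was 3.91 ± 0.56 (SE from limma). Its size rests on wild-type values of which 5 of 6 were not above background, and this probe too passed the filter only with its knockout arrays.

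Krtap9-3 encodes a keratin-associated protein. Such proteins are rich in cysteine and cross-link keratin filaments in the hair shaft, and their genes lie in clusters of similar copies. The promoter window of Krtap9-3 matched no other window in the search. Its stretch is shown because it holds the TATA box TATAAA, in capitals, which began 30 bases before the gene start. That motif, searched on both strands, occurs in 13.6% of the 32851 windows and, of the 5 genes, in those of Krtap9-3 and Tcp10b.
Krtap9-3, chr11:99598117-99598256, minus strand: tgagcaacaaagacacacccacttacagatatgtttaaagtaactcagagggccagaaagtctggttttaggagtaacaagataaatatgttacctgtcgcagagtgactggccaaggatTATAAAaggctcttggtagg

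For Krtap9-3 the scanner signal was 1743 at the lowest, 2885 at the median and 4717 at the highest of the knockout arrays. It was 105 at the lowest, 189 at the median and 619 at the highest of the wild-type arrays. The groups did not overlap, and the 1 wild-type array above background was replicate 2, with a score of 3.85. After normalization the mean log2 signal was 10.84 ± 0.76 in knockout oocytes and 7.81 ± 0.81 in wild-type oocytes (SD, n = 6 each). The log2 difference was 3.04 ± 0.43 (SE from limma), and again 5 of the 6 wild-type values behind it were not above background, while the 6 knockout arrays alone met the filter. Among the knockout arrays, replicate 2 was highest at 12.01, and replicates 3, 4 and 5 were close together at 10.21, 10.20 and 10.21.

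Hsd3b4 belongs to the family of 3-beta-hydroxysteroid dehydrogenases. Several members of that family make progesterone and other steroids in gonads and adrenal glands, and the mouse genes lie side by side on chromosome 3. In the mouse the Hsd3b4 enzyme is known from the kidney and acts as a 3-ketosteroid reductase. Of 2 starts of Hsd3b4 in the RefSeq table, the one listed first was used. Its window matched that of Gm10681 at 100% identity over 271 aligned bases and that of Gm4450 at 98.7% over 300. Over the stretch shown, Gm10681 has 0 differing bases and Gm4450 has 1, in capitals.
Hsd3b4, chr3:98510578-98510717, minus strand: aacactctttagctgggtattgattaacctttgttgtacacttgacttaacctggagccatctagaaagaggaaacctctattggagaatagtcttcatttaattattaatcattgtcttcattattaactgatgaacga
Gm10681, chr3:98564049-98564188, minus strand: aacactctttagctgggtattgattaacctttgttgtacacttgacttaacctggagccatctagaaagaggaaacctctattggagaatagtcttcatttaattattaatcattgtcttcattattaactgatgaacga
Gm4450, chr3:98457137-98457276, minus strand: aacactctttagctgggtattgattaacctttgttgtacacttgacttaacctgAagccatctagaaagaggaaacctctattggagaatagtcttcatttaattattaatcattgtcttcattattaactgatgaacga

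Hsd3b4 was well above background everywhere, with scores of 19.8 to 36.8 on knockout arrays and 19.4 to 35.8 on wild-type arrays. Its scanner signal was 6503 at the lowest, 9713 at the median and 11326 at the highest of the knockout arrays. The wild-type arrays gave 4292 at the lowest, 7927 at the median and 18450 at the highest. These ranges overlapped, with the knockout median 1.23-fold the wild-type median and no knockout array above the brightest wild-type array, replicate 2.

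Relative to the rest of each array the order turned. After quantile normalization Hsd3b4 averaged a log2 signal of 12.41 ± 0.67 in knockout oocytes and 13.86 ± 0.40 in wild-type oocytes (SD, n = 6 each), a log2 difference of -1.45 ± 0.32 (SE from limma). The highest knockout value, 13.30 on replicate 2, lay just under the lowest wild-type value, 13.35 on replicate 6. Scaled to the hybridization control spots, to the in vitro transcription control spots or in the authors' deposited table, the difference was 0.086, 0.45 and 0.13 in that order. Whether Hsd3b4 was lower in knockout oocytes thus depended on the scaling.

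Tcp10b encodes a t complex protein. The t complex is a region of mouse chromosome 17 whose variants distort the transmission of chromosomes through sperm, and the Tcp10 genes are known from male germ cells. The promoter window of Tcp10b matched that of Tcp10c at 97.0% identity over 300 aligned bases and that of Tcp10a at 96.6% over 294. In the stretch shown, Tcp10c has 0 differing bases and Tcp10a 1, in capitals. That base completes a further TATAAA in Tcp10a, which Tcp10b and Tcp10c lack at that place. Capitals in Tcp10b mark TATAAA, which began 86 bases before the start.
Tcp10b, chr17:13060961-13061100, plus strand: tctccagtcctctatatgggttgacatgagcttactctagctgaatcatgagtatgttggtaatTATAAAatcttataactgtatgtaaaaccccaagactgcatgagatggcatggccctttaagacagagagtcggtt
Tcp10c, chr17:13354422-13354561, plus strand: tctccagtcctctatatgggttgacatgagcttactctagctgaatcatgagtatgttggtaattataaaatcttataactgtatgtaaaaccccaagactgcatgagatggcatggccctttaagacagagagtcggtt
Tcp10a, chr17:7324496-7324635, plus strand: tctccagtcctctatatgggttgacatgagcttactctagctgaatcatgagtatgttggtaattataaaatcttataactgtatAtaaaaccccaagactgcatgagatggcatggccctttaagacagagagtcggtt

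The scanner signal of Tcp10b was the steadiest of the 5 within the knockout group, at 5199 for the lowest, 5669 for the median and 6617 for the highest array, a 1.27-fold span. On the wild-type arrays it was 2879 at the lowest, 4150 at the median and 5994 at the highest, a 2.08-fold span. The groups overlapped, with 2 of 6 knockout arrays above the brightest wild-type array. Normalized, Tcp10b averaged a log2 signal of 11.73 ± 0.44 in knockout oocytes and 12.82 ± 0.28 in wild-type oocytes (SD, n = 6 each), a log2 difference of -1.09 ± 0.24 (SE from limma). The highest knockout value was 12.39 and the lowest wild-type value 12.41, a narrow gap. Under the 3 scalings that turned Hsd3b4 the difference of Tcp10b was 0.42, 0.78 and 0.45, in the same order.

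For both Hsd3b4 and Tcp10b the normalized knockout values were lowest on replicates 3 and 5, whose median signals over the tested probes were 5937 and 6732, and highest on replicate 2, whose median was 2736. On the wild-type arrays the 2 genes differed. Hsd3b4 was lowest, at 13.35, on replicate 6, whose median signal of 1069 was the lowest of the group. Tcp10b was lowest, at 12.41, on replicate 2, whose median of 2580 was the highest, and there Hsd3b4 stood at 14.13. The part of array brightness in the normalized differences was not tested.

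**Figure D2:**
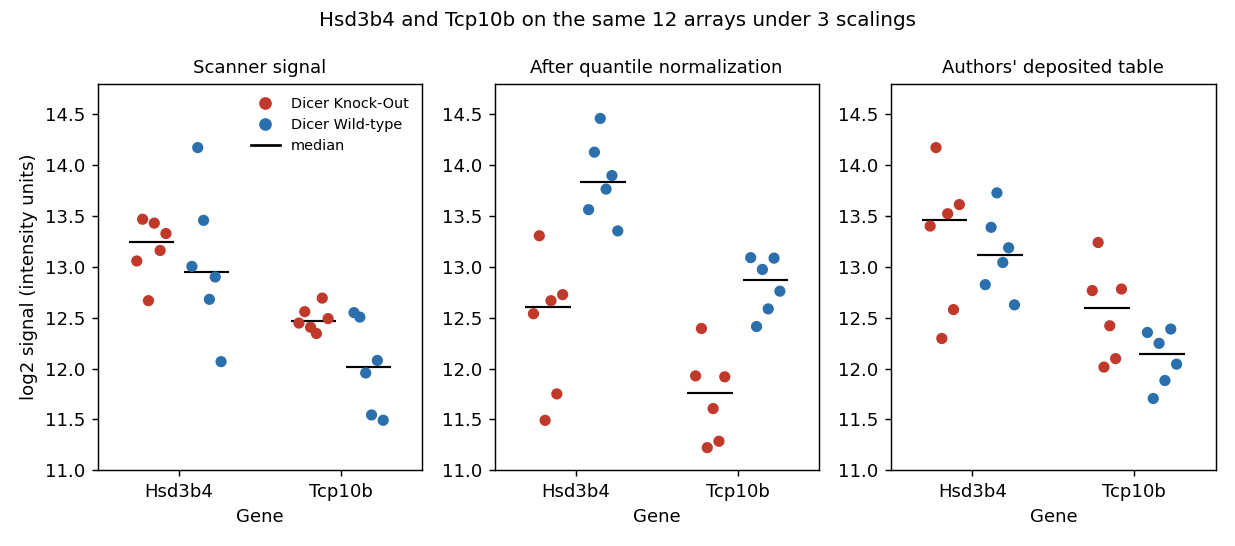
Log2 signal (intensity units) of Hsd3b4 and Tcp10b on the same arrays as read by the scanner, after quantile normalization and in the authors' deposited table, with 6 Dicer Knock-Out points left of 6 Dicer Wild-type points and bars at the medians. The groups overlap in the scanner signal and in the deposited table, and are apart after quantile normalization, with the knockout values lower.

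The direction of the other 3 genes held under every scaling that was run. Over 7 scalings, among them median centring, cyclic loess, the software's own scaling and the control spots, the log2 difference of C130026I21Rik lay between 5.27 and 7.18, that of Vmn1r148 between 3.27 and 5.24 and that of Krtap9-3 between 2.26 and 4.16. In the authors' deposited table Vmn1r148 stood at 3541 to 21100 intensity units on knockout arrays and 155 to 722 on wild-type arrays. The median log2 difference over all tested probes was 0.18 after quantile normalization and 1.71 with the in vitro transcription controls, so each gene's value has to be read against the shift of the whole array.

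**Figure D3:**
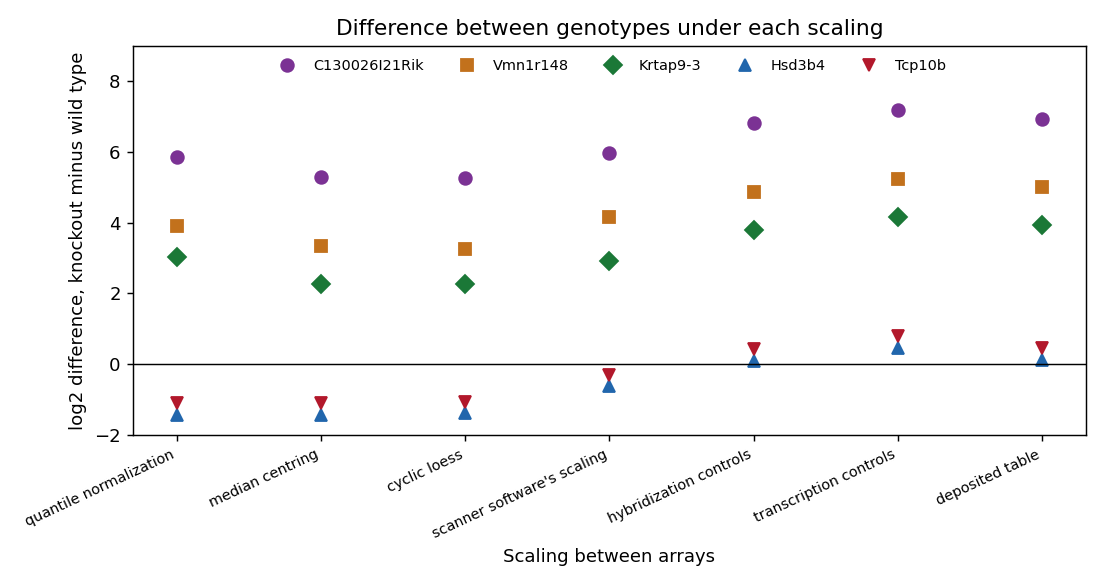
Log2 difference, knockout minus wild type, of the 5 genes (symbols) under 7 scalings between arrays (horizontal axis), with a line at 0. C130026I21Rik, Vmn1r148 and Krtap9-3 stay above 0, whereas Hsd3b4 and Tcp10b are below 0 under 4 scalings and above 0 under both control-spot scalings and in the deposited table.

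Other genes of the same kinds were looked up in lists of chemosensory receptors, keratins and hair proteins, steroid synthesis, the Sp100 family, and t complex and testis genes, with 67 further named probes. Of these, 36 (53.7%) were above background on 0 of 12 arrays and 1 (1.49%) on at least 6, against 37.4% and 18.4% of all 33012 probes. The 1 tested probe was that of Krtap3-3, so 0 of 1 tested probes in the lists rose and 0 fell at an adjusted p under 0.05 in limma. Krtap3-3, another keratin-associated protein gene, stood at 3575 to 4584 intensity units on knockout arrays and 1516 to 3003 on wild-type arrays. Its log2 difference was -0.59 ± 0.27 (SE; limma, unadjusted p = 0.0453, adjusted p = 0.0817), and it turned to 0.86 with the hybridization controls (adjusted p = 0.00526). After quantile normalization 50.5% of all tested probes passed, and with the hybridization controls 3726 of 6088 did.

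The probes of 10 other V1R genes were mostly dark. Of their 11 probes, 6 were above background on no array, as were 37.4% of all 33012 probes. Vmn1r185 was above background on 2 knockout and 0 wild-type arrays, Vmn1r53 and Vmn1r76 on 1 knockout array each, and Vmn1r43 and Vmn1r236 on 1 wild-type array each. Vmn1r53 stood at 81.1 to 1047 intensity units on knockout arrays and 98.3 to 188 on wild-type arrays. Vmn1r148, with 7 of 12 arrays, was the only named V1R gene with a tested probe. It met the filter only with its knockout arrays and was chosen with its detection in view, so nothing is read from this.

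Olfactory receptors, the odorant receptors of the nose, and the taste receptor Tas2r139 had 40 named probes, of which 25 were above background on no array and the rest on 1 or 2. Over all 33012 probes, 37.4% were above background on no array. Those on 2 arrays were Olfr338, Olfr875 and Olfr1126, on 2 knockout arrays each, and Olfr1246 and Olfr1253, on 1 array of each group. The probes of Olfr993, Olfr1189 and Olfr381 were above background on 1 knockout array each. Those of Olfr73, Olfr731, Olfr959, Olfr920, Olfr466, Olfr1213 and Olfr1243 were so on 1 wild-type array each.

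Among the keratin-associated proteins, Krtap4-2 was above background on 3 knockout and 0 wild-type arrays, and Krtap1-5 and Krtap4-7 on 0 knockout arrays and 1 wild-type array each. The hair keratin genes Krt25 and Krt27 were above background on 2 knockout arrays each and on 1 and 0 wild-type arrays. Krtap3-2, Krtap6-1 and Krt23 were above background on 0 arrays. In the steroid list the other named probe was Hsd17b10, a mitochondrial dehydrogenase, above background on 2 knockout and 0 wild-type arrays.

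A copy of Tcp10b and a relative of Sp140 were read above background on few arrays. Tcp10a, whose promoter window is nearly that of Tcp10b, was above background on 0 knockout and 2 wild-type arrays. Its scanner signal was 100.4 to 479 intensity units on knockout arrays and 186 to 732 on wild-type arrays. Csprs, a named relative of the Sp100 family on mouse chromosome 1, was above background on 0 knockout and 1 wild-type arrays, at 124 to 218 and 90.4 to 367 intensity units. Signals of different probes cannot be set against each other as transcript levels, so these values say only on which arrays each probe was read above background.

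In the t complex list Dynlt1b, a dynein light chain gene, was above background on 5 knockout and 0 wild-type arrays, 1 array short of the filter. Its scanner signal was 311 at the lowest, 1358 at the median and 4273 at the highest of the knockout arrays, and 82.1 at the lowest, 154 at the median and 315 at the highest of the wild-type arrays. The groups touched, since the lowest knockout array lay just under the highest wild-type array. Set against the lowest signal read above background on each wild-type array, or the probe's own where higher, the quantile-normalized knockout mean of Dynlt1b was 4.85-fold higher. This fold is not a lower bound, because the signal needed to be above background differs between probes. On wild-type replicate 2, Vmn1r148 was not above background at 716 intensity units, while Krtap9-3 was at 619. Speer4d was above background on 1 knockout and 0 wild-type arrays, and Tcte3 and Tex46 on none.

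**Figure D4:**
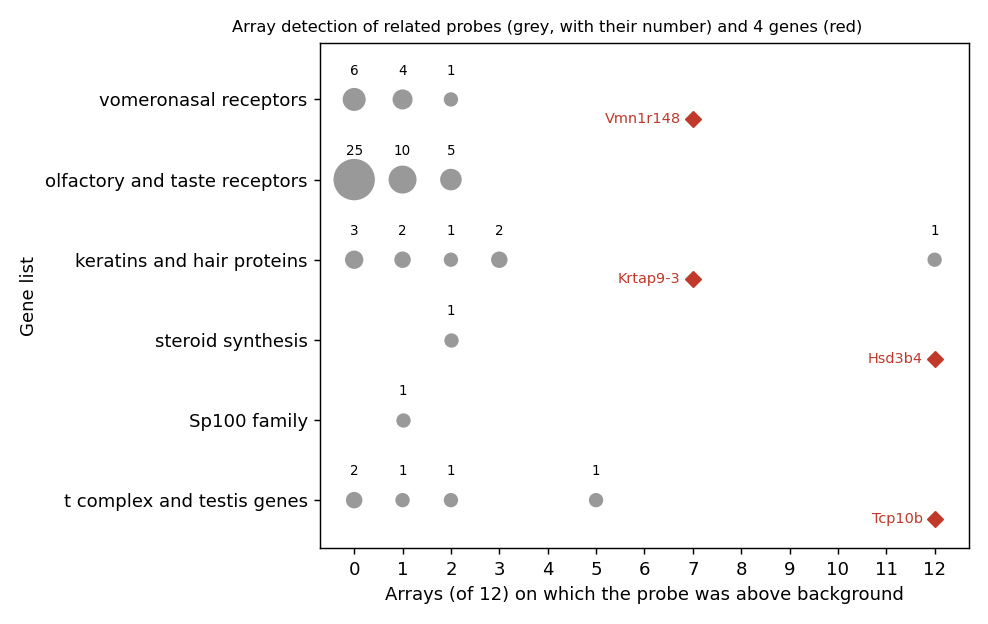
Number of arrays, of 12, on which each probe was above background (horizontal axis) in 6 gene lists (vertical axis); grey circles carry the number of probes at that place and grow with it, and red diamonds are Vmn1r148, Krtap9-3, Hsd3b4 and Tcp10b. Of 67 grey probes 36 sit at 0 arrays, and Krtap3-3 alone among them sits at 12.

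The named genes whose pattern over the 12 arrays was most like that of each of the 5 were found by the root mean square difference of the normalized log2 signals, each probe centred on its own mean, among 69 other named tested probes. This measure takes in the difference between the groups, by which the 5 were chosen. Nearest to C130026I21Rik were Fgf21, a fasting hormone, at 1.25, Mos at 1.45 and Pdxp, a phosphatase of pyridoxal phosphate, at 1.71, where the median over the candidates was 3.14. Nearest to Vmn1r148 were Krtap9-3 at 0.86, Pdxp at 0.98 and Mos at 1.14, with a median of 2.24. Nearest to Krtap9-3 were Notum, a secreted Wnt inhibitor, at 0.68, Ghdc at 0.76 and Vmn1r148 at 0.86, with a median of 1.79.

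Hsd3b4 lay nearest to the kinase Wnk4 at 0.37, to Tcp10b at 0.41 and to the ubiquitin ligase Wwp1 at 0.44, with a median of 1.26. Tcp10b lay nearest to Krtap3-3 at 0.28, the peptidase Dpp9 at 0.29 and the RING finger gene Rnf112 at 0.29, with a median of 1.07. The distances of Hsd3b4 and Tcp10b to their neighbours were smaller than those of the other 3 genes, and so were their medians over the candidates. The wild-type values of the other 3 genes sat mostly near the noise floor. Why the distances differ was not tested.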

How the data were processed

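Transcript levels of Dicer Knock-Out and Dicer Wild-type oocytes were measured on 12 arrays, the Mouse Genome Survey Microarray 1.0 of Applied Biosystems; per the file headers, software 1.1.1 of the AB1700 system read them. The deposited scanner files hold a linear signal intensity per spot, its error, a signal-over-noise score and quality flags, per the file headers. Over all gene spots with a score below 1, the deposited signal equalled its error. The authors' deposited series table also holds intensities, but how these were made is stated nowhere in the material at hand. The members and lists were chosen with earlier results of these data known.

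Spots flagged 5000 or above counted as missing, which touched 0 spots of the 5 genes, and control spots were left out. Signals were log2-transformed and then quantile-normalized over the 12 arrays. An earlier run took these steps in the reverse order; the order used was adopted after both results had been seen, and the other is kept as an alternative. A probe was tested if its score was at least 3 on at least 6 of 12 arrays without regard to group, and all 5 genes passed. The genotypes were compared by limma's two-sided moderated test (version 3.58.1, in R 4.3.3), adjusted by Benjamini-Hochberg over 6088 probes, with a threshold of 0.05. The fit was tested on simulated data; its pass marks were replaced by marks on the mean of repeated simulations after a first single simulation had been seen. Group labels came from the titles, and replicate numbers follow sample order only.

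Genes were named from RefSeq transcript accessions without versions (311 probes, and 6 by synonym; build GRCm38.p6). The files name no build, so coordinates are given only for sequences of the RefSeq promoter table. The genes named were the 5, the 3 named tested probes with the most similar pattern for each, members of the related lists above background on at least 1 array, and named cell type markers; Krtap3-2, Krtap6-1, Krt23, Tas2r139, Tcte3 and Tex46, dark on all arrays, were named beyond that rule. Promoter windows were compared with blastn, and promoter stretches were aligned pairwise. Alternatives were other scalings, normexp with an offset of 50, other filters, a score of at least 2 or 5, and leaving out each array. Quantile normalization before log2 was added after seeing the data.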

Additional observations from a re-analysis of the deposited data

How the results depend on the processing

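Over 23 alternatives each, C130026I21Rik, Vmn1r148 and Krtap9-3 kept their direction, and Hsd3b4 and Tcp10b kept theirs in 20. In the other 3, both kinds of control spot and the deposited table, Hsd3b4 and Tcp10b were above 0. The filter alternatives could not change a gene's difference, since probes were filtered after normalization. Leaving out an array, normexp and the other log2 order all kept quantile normalization, so these counts are no measure of robustness to scaling. With the in vitro transcription controls as scale, the log2 differences were 7.18 for C130026I21Rik, 5.24 for Vmn1r148, 4.16 for Krtap9-3, 0.45 for Hsd3b4, 0.78 for Tcp10b and 1.22 for Krtap3-3. In the deposited table they were 6.92, 5.01, 3.93, 0.13, 0.45 and 0.90 in that order. With the hybridization control spots Hsd3b4, Tcp10b and Krtap3-3 stood at 0.086, 0.42 and 0.86, and with the scanner software's signal at -0.63, -0.30 and 0.14. The cause of these changes was not tested; the median log2 difference of all tested probes was 1.71, 1.39, 1.34 and 0.55 under these 4 scalings, against 0.18 after quantile normalization. Their call splits over 6088 tested probes were 4204 higher and 62 lower, 3842 and 146, 3591 and 135, and 2080 and 511 in the order given, against 1711 and 1366 after quantile normalization and 1393 and 1796 after median centring. The number of probes past the threshold was 3077, between 2591 and 4266 over the alternatives, and between 2808 and 3213 with an array left out.

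With a score of at least 5, C130026I21Rik was above background on 0 wild-type arrays and Krtap9-3 on 0, and with at least 2, Vmn1r148 on 2. The count of probes past the threshold in the related lists was 0, and 0 to 1 with an array left out. It became 1, through Krtap3-3, with either kind of control spot, in the deposited table and without knockout replicate 2. Its direction differed between these. Krtap3-3 was higher in knockout oocytes with hybridization controls (0.86), transcription controls (1.22) and in the deposited table (0.90). Without knockout replicate 2 it was lower, at -0.74 (adjusted p = 0.0235 in limma). The count was also 1 with probes tested from 3 arrays upward or without a filter (Dynlt1b). With an array left out, the log2 differences were 5.57 to 6.35, 3.66 to 4.29, 2.81 to 3.35, -1.62 to -1.26 and -1.23 to -0.99 for the 5 genes in the order of the report. Signal near the noise floor limits the size of the differences of C130026I21Rik, Vmn1r148 and Krtap9-3. No paired analysis was possible because replicate numbers follow sample order only. In 12 groups of 6 values, no array lay far from the others by Dixon's test.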
